A study of Mus musculus with 84 samples.

Results

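The neurons described here were airway-projecting vagal sensory neurons of the mouse that carried the transcription factor Prdm12. They were selected on the measured level of that gene: 6 of the 38 neurons kept for comparison had Prdm12 at 10 CPM or more, CPM being counts per 1000000 counts of the neuron, and they were compared with the 32 other kept neurons across all genes. The series holds 84 neurons, each picked singly from the vagal ganglia of C57BL/6 mice after a lipophilic dye, DiI at 2%, had travelled back to the cell body from the airways. RNA of each neuron was amplified before sequencing, and the deposited table gives raw read counts per gene. All 84 neurons share the strain, the tracer and the tissue, and the labels name no treatment, age, sex or animal. Both classes of neuron therefore come from 1 labelled group, and neurons that may share an animal were not treated as replicates, so no test between the classes was run and every difference below is a description.

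A gene is called found in a neuron when it had 10 CPM or more. A neuron was kept when it had at least 5000000 counts, which 72 of the 84 met, and at least 5000 genes at 10 CPM or more. The 6 Prdm12 neurons were AM011, AM013, AM228, AM237, AM296 and AM303, and values for the 6 are listed in that order throughout. Their Prdm12 levels were 53.7, 87.01, 27.4, 46.9, 22.04 and 27.04 CPM. The gene was far from the threshold on both sides, since the lowest member, AM296, had 22.04 CPM and the highest of the 32 others had 0.259 CPM. A 7th neuron with Prdm12, AM304 at 57.8 CPM, had 10509125 counts but 4722 genes and fell just outside the gene minimum. AM086, also short of the gene minimum, had 9.13 CPM.

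Prdm12 is a zinc finger regulator of the Prdm family. In sensory ganglia derived from the neural crest it is needed for pain-sensing neurons to form, and people who lack it are born without pain sensation. The vagal sensory ganglia join the jugular ganglion, which comes from the neural crest, with the nodose ganglion, which comes from epibranchial placodes. Jugular and nodose neurons both reach the airways, and they differ in the transcription factors that set their identity.

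The label of a jugular type was checked against the ganglion markers. Prrxl1, a homeodomain factor of neural crest sensory neurons, was at 302, 322, 235, 228, 236 and 162 CPM, so it was found in 6 of 6 Prdm12 neurons and in 15 of 32 others. The nodose markers were low. P2rx2, an ATP-gated channel, was found in 0 of 6 against 26 of 32 neurons, with a highest value of 1.64 CPM among the Prdm12 neurons. Hoxb5 was found in 1 of 6 against 31 of 32, and Phox2a in 0 of 6 against 2 of 32. The summed level of the 4 nodose markers was 0.771 to 28.3 CPM in Prdm12 neurons and 72.3 to 1222 CPM in the others, and the classes did not overlap. A pair of the jugular markers went against the label: Runx1, a regulator of nociceptor subtypes, was found in 4 of 6 against 31 of 32 neurons and Tac1, the substance P precursor, in 3 of 6 against 21 of 32. The name Prdm12 neurons is therefore used here.

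The classes overlapped in depth. Total counts were 10662035 to 18238837 in the Prdm12 neurons and 7667941 to 20668832 in the others, and genes at 10 CPM or more numbered 7715 to 8317 (median 8107) and 5231 to 8870 (median 7851.5). At 10 CPM the shallowest kept neuron had 76.7 counts. The pan-neuronal markers summed to 14996 to 20402 CPM and 10533 to 28295 CPM. The satellite glia markers, 11 genes, summed to 94.9 to 2633 CPM (median 479.8) in Prdm12 neurons and 97.6 to 10840.1 CPM (median 1239) in the others. The Schwann cell markers, 10 genes, summed to 1327 to 2531 CPM (median 2252) in Prdm12 neurons and 126.5 to 2203 CPM (median 1335) in the others, higher in the class by median. S100b and Pmp22 were found in every Prdm12 neuron while Mag and Cldn19 were listed at 0. The 10 leukocyte markers summed to at most 18.6 and 44.6 CPM: in Prdm12 neurons 8 of them were at 0, Cd68 reached 4.22 CPM, and Aif1 was found in 1 neuron at 14.35 CPM and in no other neuron. Markers of endothelium, fibroblasts, erythrocytes and epithelium summed to at most 87.1, 109.98, 60.4 and 36.9 CPM in Prdm12 neurons and 120.1, 227, 37.2 and 140.04 CPM in the others. What part RNA of other cells has in the differences below was not tested.

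Across the genome 10805 annotated genes reached 10 CPM in at least 5 of the 38 neurons and were compared. The share of neurons with a gene at 10 CPM or more was at least 40 percentage points higher in the Prdm12 neurons for 480 genes (4.44%) and at least 40 points lower for 218 genes (2.02%). With 6 neurons, 1 neuron is worth 16.7 points. Of the 480 genes, 246 were found in all 6 Prdm12 neurons, and Prdm12, whose absence elsewhere the rule fixed, and Olfml3 were found in no other neuron. Olfml3 passed the filter of 5 neurons through the Prdm12 class alone, and a filter of 10 neurons left 390 of the 480 genes. Of the 218 genes, 120 were found in no Prdm12 neuron and 6 were found in every other neuron. A share of 6 of 6 has an exact 95% interval of 54.1 to 100%, and one of 0 of 6 reaches 45.9%, from counting alone. By the rule of 3 counts for a count of 0, the limit is 50%. Without a gene minimum, 7 Prdm12 and 65 other neurons gave 2119 and 58 genes. A minimum of 6000 genes gave 366 and 292. Against the 10 others with as many genes as the Prdm12 neurons, 427 and 370 were called. The balance of higher and lower genes thus varied with the gene filter, and 4.44% and 2.02% hold for the main filter only. Without the neurons of the third identifier block, 2 against 13 neurons gave 459 and 744.

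Which genes passed the share rule depended on the threshold of 10 CPM. At 5 CPM 517 genes were higher, of which 227 were among the 480, and at 50 CPM 314, of which 52 were. With 1 count as the threshold, 646 were higher and 58 were shared. On the lower side 127, 57 and 23 of the 218 genes were called at 5 CPM, 50 CPM and 1 count. The sign of the difference turned at 50 CPM for Stk32c, Spry2, Chst10, Pfkfb4, Me2 and Foxk1, and at 1 count for Rasgrp1, Fhod3, Stom, Tmem233, Spon1, Fign, Dclk3, Pcdh11x and Nhlh2. These turned values were small, -3.13 to -9.38 points at 50 CPM and 3.13 to 9.38 points at 1 count. In the other class 1 neuron is worth 3.13 points.

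Levels gave a shorter list. The median level, after adding 10 CPM, was at least 4-fold higher in Prdm12 neurons for 105 genes (0.972%) and at least 4-fold lower for 71 genes (0.657%). Both rules were met by 70 genes with higher and 54 with lower values. Over all genes compared, the median difference in share was 3.13 points and the median log2 ratio of levels was 0.09, both toward the Prdm12 neurons. Within the class, 5437 of the 10805 genes (50.3%) were found in all 6 Prdm12 neurons and 699 (6.47%) in none.

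**Figure D1:**
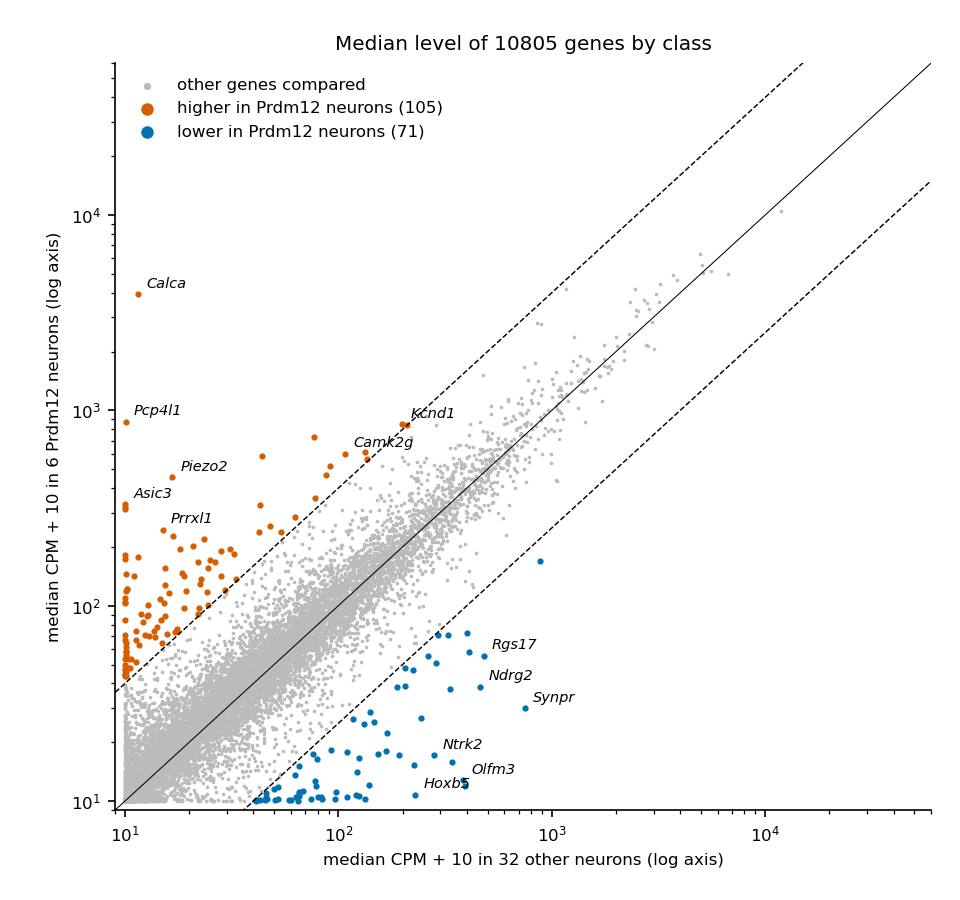
Each point is 1 of the 10805 genes compared, placed by its median CPM + 10 in the 32 other neurons (x axis, log scale) and in the 6 Prdm12 neurons (y axis, log scale); dashed lines mark 4-fold differences. By the 4-fold rule 105 genes lie above the upper line and 71 below the lower line, of which 27 and 23 passed 8-fold. The cloud of all genes is centred near the diagonal.

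Separation was complete for 14 genes (0.13%), Prdm12 among them by rule, whose lowest Prdm12 neuron lay above all 32 others, and for 2 genes (0.0185%) in the other direction. With a filter of 10 neurons per gene, 8 of the 14 were left. Trappc3l, which encodes a relative of a subunit of the TRAPP vesicle-tethering complex, was at 419, 392, 212, 608, 169.7 and 206 CPM. The lowest, median and highest values of the 32 others were 0, 0 and 19.9 CPM. Pcp4l1, a small IQ-motif protein, was at 604, 1129, 1519.9, 181, 364 and 1602 CPM, against 0, 0.0834 and 58.3 CPM. Both genes were low or undetected in most other neurons and present throughout the Prdm12 class.

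Asic3, an acid-sensing ion channel of sensory endings, was at 396, 294, 78.9, 381, 156 and 347 CPM. AM228 was the lowest of these and lay just above the highest other neuron, at 76.6 CPM. Syt6, a synaptotagmin, was at 107, 112, 99.5, 139.5, 112 and 108 CPM, a narrow range with AM237 at its top, and the highest other neuron had 24.6 CPM. Pou4f3, a POU-domain transcription factor best known from the hair cells of the inner ear, was at 97.6, 303, 155, 324, 169.9 and 112 CPM, against 0, 0.0561 and 64.6 CPM.

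Other genes were expressed by both classes and differed in level. Camk2g, the gamma subunit of calcium/calmodulin-dependent kinase II, was at 725, 590.3, 445, 591, 595 and 478 CPM, against 20.5, 97.4 and 227 CPM. Ncdn, encoding neurochondrin, an inhibitor of that kinase, was at 284, 263, 538, 420.0, 587 and 399.8 CPM, and the others reached 249.7 CPM. Ppp3ca, the catalytic subunit of the calcium-dependent phosphatase calcineurin, was at 5519.5, 4269, 4035, 5499.6, 2997 and 3487 CPM, and the others reached 2479 CPM. These genes of calcium signalling were found in at least 31 of the 32 other neurons, so their difference was one of amount.

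Etv5, an ETS transcription factor, was at 195, 159, 159, 97.9, 116 and 176 CPM and reached 95.2 CPM in the others, a narrow gap. Ephx1, microsomal epoxide hydrolase, was at 90.9, 114, 53.5, 161, 44.2 and 69.3 CPM, with 31.8 CPM as the highest other value. Inka2, an inhibitor of the kinase Pak4, was at 55.3, 47.9, 43.8, 40.8, 81.3 and 77.9 CPM, with 20.5 CPM as the highest other value. The list also held Gm43154, a non-coding gene at 12.5 to 33.8 CPM, and Gm13425 at 51.1 to 136 CPM, which lies antisense to Prdm12, so that its reads and those of Prdm12 cannot be told apart if counting ignored strand. Trappc3l likewise overlaps Calhm4 and Calhm5 on the opposite strand. In the other direction Ntrk2, which binds the neurotrophin BDNF, was at 3.84, 24.6, 1.35, 23.5, 10.5 and 0.385 CPM in the Prdm12 neurons and at 38.7, 272 and 719.8 CPM in the others. The second gene is not reported here.

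The promoter windows of Prdm12 itself and of a pair of the fully separated genes are printed to show what sequence lies at their starts. They run from 250 bases before to 50 bases after the annotated start (RefSeq, GRCm38.p6), all on the plus strand, at chr2:31639787-31640086 for Prdm12, chr5:24413201-24413500 for Asic3 and chr10:34037347-34037646 for Trappc3l. Capitals mark the E-box letters CANNTG, the general form bound by basic helix-loop-helix factors.
Prdm12: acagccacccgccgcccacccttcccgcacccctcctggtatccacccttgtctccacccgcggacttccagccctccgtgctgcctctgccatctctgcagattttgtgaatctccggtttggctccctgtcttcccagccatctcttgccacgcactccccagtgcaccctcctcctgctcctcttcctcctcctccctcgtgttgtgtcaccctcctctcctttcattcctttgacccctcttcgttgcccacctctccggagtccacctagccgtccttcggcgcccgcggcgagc
Asic3: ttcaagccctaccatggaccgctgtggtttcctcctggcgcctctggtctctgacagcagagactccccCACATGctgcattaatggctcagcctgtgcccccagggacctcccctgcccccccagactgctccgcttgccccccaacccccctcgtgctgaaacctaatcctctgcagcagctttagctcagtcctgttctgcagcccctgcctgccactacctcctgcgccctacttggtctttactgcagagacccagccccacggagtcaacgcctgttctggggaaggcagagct
Trappc3l: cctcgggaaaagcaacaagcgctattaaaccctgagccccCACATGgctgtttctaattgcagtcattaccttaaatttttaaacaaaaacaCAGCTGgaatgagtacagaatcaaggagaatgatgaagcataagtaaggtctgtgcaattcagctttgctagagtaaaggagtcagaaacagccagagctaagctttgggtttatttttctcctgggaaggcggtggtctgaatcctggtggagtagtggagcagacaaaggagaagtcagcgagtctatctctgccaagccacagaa

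The Prdm12 window held 0 matches to CANNTG, the Asic3 window 1 and the Trappc3l window 2. Windows were available for 355 of the 480 genes with higher share, 156 of the 218 with lower share and 8226 of all genes compared. CANNTG, which reads the same on both strands, was found in 65.9%, 65.4% and 61.7% of them. The GC box GGGCGG, searched on both strands, was found in 65.6%, 62.2% and 67.4%, and the TATA letters TATAAA in 6.48%, 8.97% and 6.20%. TAATTA, a core bound by many homeodomain proteins, was found in 1.69%, 3.21% and 2.14%. The cyclic AMP response element TGACGTCA was found in 2.54%, 3.21% and 3.62%, and the octamer ATGCAAAT, bound by POU factors, in 1.97%, 0% and 1.29%. No motif was more than 5 points more frequent in the windows of the higher genes than in all windows. A match is a description of letters and no evidence of binding.

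Among coding genes, the largest differences in share on the Prdm12 side joined signalling, nuclear and secreted proteins. Htr1b, an inhibitory serotonin receptor, was at 109, 83.6, 37.7, 86.8, 11.3 and 36.1 CPM and was found in 1 of 32 others (exact 95% interval 0.0791 to 16.2%). Serpinb8, an intracellular protease inhibitor, and Tmem28 were each found in 6 of 6 against 2 of 32 neurons, at medians of 38.2 against 0.0669 CPM and 39.8 against 0 CPM. Olfml3, a secreted olfactomedin-domain protein, was at 52.3, 26.2, 40.97, 15.3, 7.41 and 89.8 CPM, and no other neuron reached 10 CPM. It is the coding neighbour of Syt6 on chromosome 3.

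Genes of cell shape and lipid signalling followed. Syne4, a nesprin that links the nuclear envelope to kinesin, was found in 6 of 6 against 4 of 32 neurons at medians of 99.6 against 0 CPM. Shroom3, an actin-binding protein of apical constriction, was found in 6 of 6 against 4 of 32 at 64.2 against 1.29 CPM. Pla2g7, the hydrolase of platelet-activating factor, was at 153, 121, 144, 33.2, 14.9 and 246 CPM, and AM237 and AM296 were the low neurons, the latter below the highest other value of 33.02 CPM. Stk32c, a serine/threonine kinase, was found in 6 of 6 against 5 of 32 at 21.7 against 2.44 CPM.

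By ratio of medians, Calca, the precursor of the neuropeptide CGRP, stood first. Its values were 4325, 13479.6, 9.43, 3507, 8796 and 0.0642 CPM, so the log2 ratio of 8.41 rested on 4 neurons, while AM228 and AM303 lay under 10 CPM. Pcp4l1, Asic3, Trappc3l and Piezo2 were also among the largest ratios. Piezo2, the mechanically gated channel of touch and lung stretch, was instead present in all 6 at 673, 471, 248, 449, 104 and 439.6 CPM, against 0, 6.604 and 600.1 CPM, and overlapped the others.

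Rasgrf2, a calcium-activated exchange factor for Ras, was found in 6 of 6 against 7 of 32 neurons at 171 against 0.0303 CPM. Scn4b, an accessory subunit of sodium channels, was at 209, 97.4, 204, 131, 0.281 and 305 CPM, absent from AM296 at this threshold. Sv2b, a synaptic vesicle glycoprotein, was found in 6 of 6 against 15 of 32 at 218 against 6.803 CPM.

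The lower genes named first were found in at least 25 of the 32 other neurons, although only 6 of the 218 were found in all of them. Efna5, encoding the guidance ligand ephrin-A5, was found in 1 of 6 against 32 of 32 neurons (exact 95% interval 89.1 to 100% for the others), with the single Prdm12 neuron being AM228 at 26.1 CPM. Samd5 and Tmem159 were each found in 0 of 6 against 27 of 32. Dcdc2a, a doublecortin-domain microtubule protein, was found in 0 of 6 against 26 of 32 at medians of 2.11 against 129 CPM.

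The same 0 of 6 against 26 of 32 neurons held for Rasgrp1, a diacylglycerol-activated exchange factor for Ras, for the formin Fhod3, for Klf5, for Pygo1, a nuclear cofactor of Wnt signalling, and for Akr1b3, aldose reductase. Akr1b3 lay close to the threshold, with medians of 6.03 against 19.2 CPM, and Pygo1 reached 9.39 CPM in AM237, just under it. Rasgrp1 had medians of 0.489 against 70.5 CPM and Fhod3 of 1.22 against 58.1 CPM. Stom, the membrane protein stomatin, and Psmb8, an immunoproteasome subunit, were each found in 0 of 6 against 25 of 32. D430019H16Rik was found in 1 of 6 against 31 of 32, the exception being AM296 at 203 CPM.

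By level, Olfm3 and Synpr had the largest differences on the lower side. Olfm3, a secreted olfactomedin, was at 13, 0.274, 0.359, 4.41, 4.502 and 1.22 CPM against 0.0782, 374 and 1024 CPM. Synpr, the synaptic vesicle protein synaptoporin, was at 2.63, 1.37, 209, 3.71, 36.2 and 249 CPM against a median of 739 CPM, and AM228 and AM303 were the neurons in which it was highest. P2ry1, a nucleotide receptor, was at 32.97, 8.83, 48.1, 0.3502, 0.844 and 1.798 CPM against a median of 216 CPM. Ndrg2 was found in 3 of 6 against 32 of 32 neurons at 28.6 against 453 CPM, Mdfic in 1 of 6 against 27 of 32 at 0.247 against 124 CPM, and Tmem233 in 1 of 6 against 25 of 32 at 5.76 against 332 CPM.

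Gene families were then read by name, as counts of members past the 40-point rule set beside the background of 4.44% higher and 2.02% lower. Adhesion and matrix genes had 22 of 259 members higher (8.49%) and 13 lower (5.02%). Transcription factors had 25 of 527 higher (4.74%) and 16 lower (3.04%). Metabolic genes had 23 of 641 higher (3.59%) and 9 lower (1.40%), and cytoskeletal genes 17 of 493 higher (3.45%) and 12 lower (2.43%). Signalling genes had 26 of 330 higher (7.88%) and 9 lower. Because Prdm12 chose the neurons and the families were read on the same contrast, these counts rank families and carry no test.

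**Figure D2:**
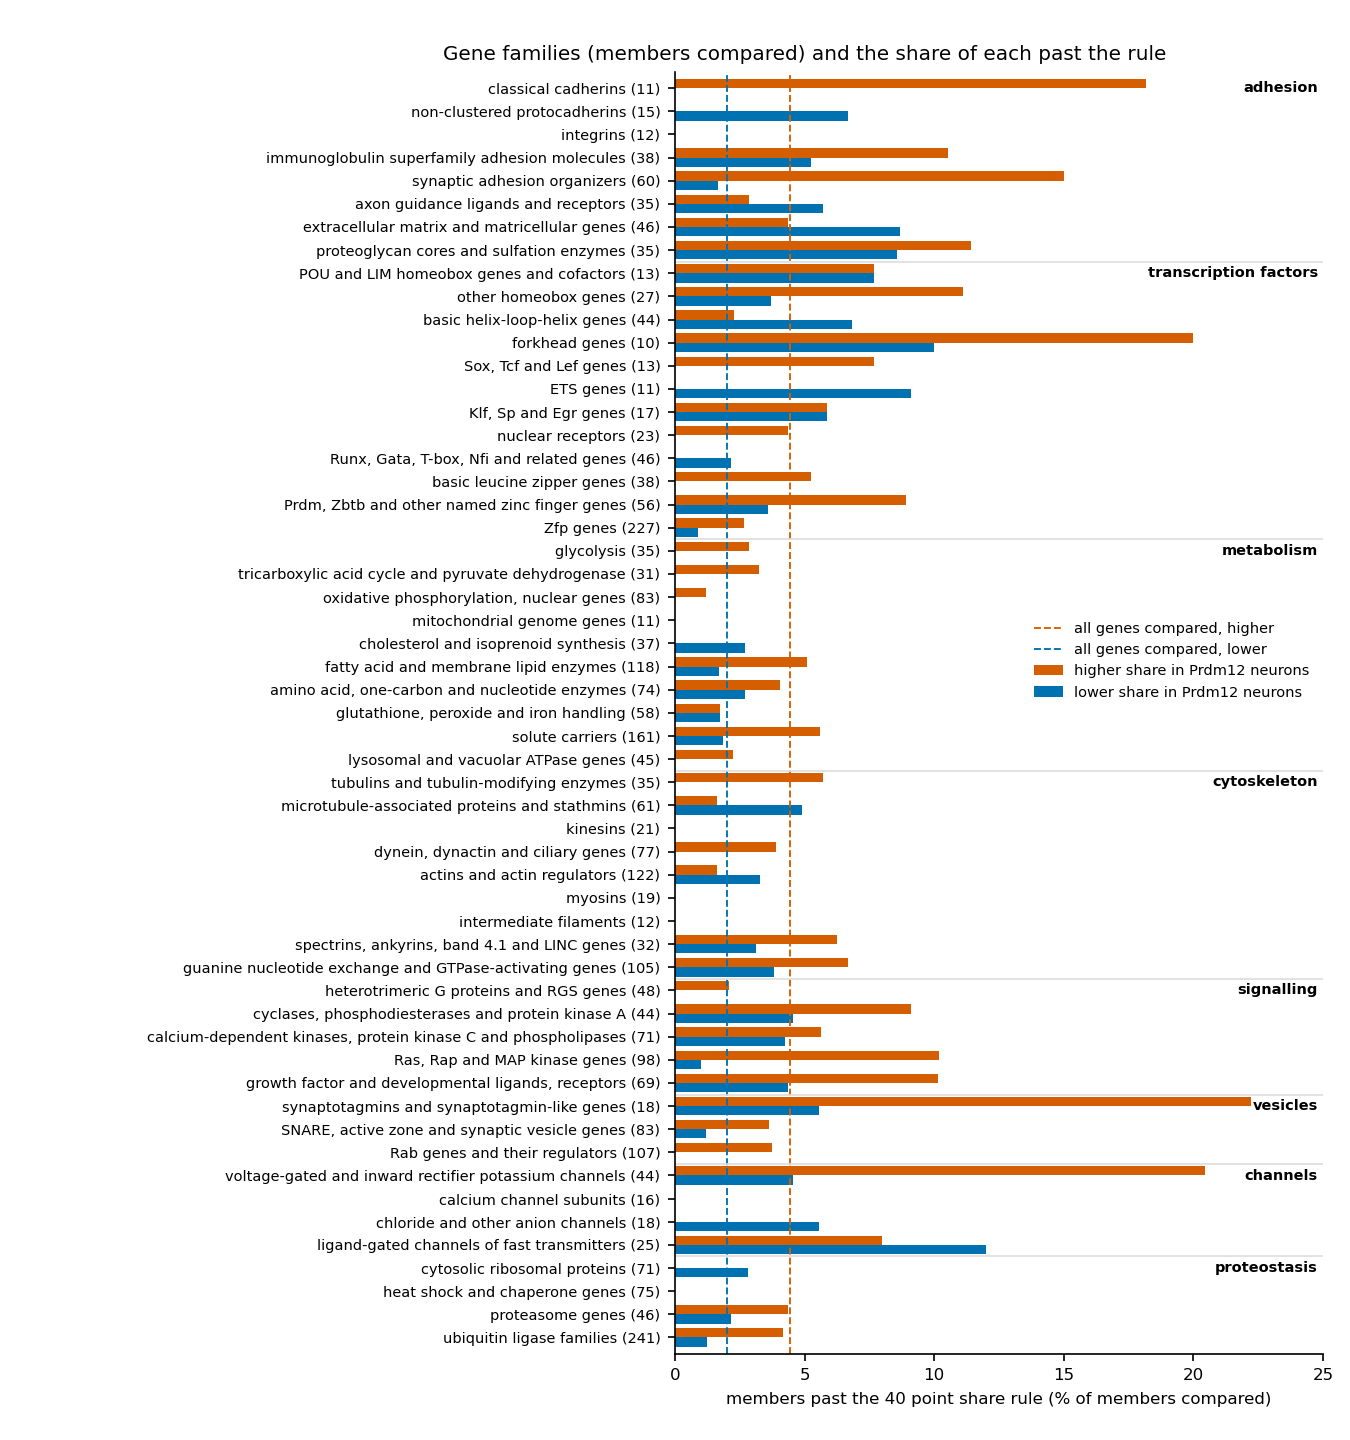
Percentage of compared members of each gene family, with the number compared in brackets, that passed the 40-point rule with a higher (orange) or lower (blue) share in Prdm12 neurons; dashed lines show 4.44% and 2.02% for all genes. Families with at least 10 members compared are drawn. Synaptotagmins with synaptotagmin-like genes, potassium channels, forkhead genes, cadherins and synaptic adhesion organizers reach furthest to the right. The synaptotagmin, forkhead and cadherin families had 18, 10 and 11 members compared, too few to set against 4.44%.

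Among transcription factors, the Hox genes passed the rule in both directions, with 6 compared, too few to set against 4.44% or 2.02%. Hoxd1 was at 18.4, 89.8, 87.7, 29.8, 3.56 and 38.9 CPM and was found in 5 of 6 against 2 of 32 neurons. Hoxa2 was at 24.97, 5.92, 1.98, 12.4, 36.95 and 2.505 CPM, found in 3 of 6 against 2 of 32. Hoxb4, Hoxb5 and Hoxb6, which lie side by side on chromosome 11, were found in 2 against 31, 1 against 31 and 0 against 21 of 6 and 32 neurons. Hox genes mark position along the body axis, and 5 of the 6 that were compared passed the rule, 2 higher and 3 lower.

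Hoxb5 was at 13.6, 2.03, 0, 0.6304, 0.938 and 0.385 CPM in the Prdm12 neurons against 4.09, 219 and 485 CPM in the others, so that AM011 alone passed 10 CPM. Hoxb4 was at 0.768, 11.3, 0.359, 38.1, 0.188 and 0.193 CPM against 9.77, 114 and 254 CPM, with AM013 and AM237 above 10 CPM. Hoxb6 did not exceed 0.1097 CPM in any Prdm12 neuron. Hoxb5 overlaps an antisense gene, Hoxb5os, and counting without strand would not separate them.

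The homeodomain factors Pknox2 and Meis2, both of the TALE class that partners Hox proteins, were higher in share. Pknox2 was at 73.8, 65.2, 102, 76.1, 39.2 and 107 CPM against a median of 4.68 CPM, and it was present in all 6. Meis2 was at 13.1, 17.8, 296, 0.1401, 6.75 and 181 CPM, which put it high in AM228 and AM303 and near the threshold or under it in the rest. Zfhx4, a zinc finger homeodomain factor, was found in 1 of 6 against 22 of 32, with AM228 at 28.03 CPM as the exception. Isl1, a LIM homeodomain factor of all sensory neurons, was found in 6 of 6 against 31 of 32 at 102 against 222 CPM.

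Zinc finger repressors that shape neuronal subtype were among the higher genes. Prdm8, a Prdm relative, was at 49.9, 119, 20.6, 37.7, 4.596 and 20.6 CPM and was found in 5 of 6 against 2 of 32. Bcl11b was at 65.1, 184, 44.9, 41.5, 13.3 and 4.88 CPM, found in 5 of 6 against 4 of 32, with AM303 under the threshold. Zbtb17 was found in 5 of 6 against 11 of 32, Zbtb22 in 6 of 6 against 17 of 32. Insm2 passed the rule on levels alone, at 66.2 against 7.45 CPM. Myt1, a zinc finger factor of neuronal differentiation, was lower at 8.77, 7.29, 2.16, 16.95, 21.3 and 0.257 CPM against 0.643, 50.7 and 268 CPM.

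In the remaining transcription factor families the directions were mixed. Ebf4 was found in 5 of 6 against 4 of 32 neurons, whereas Nhlh2, a helix-loop-helix factor of differentiating neurons, was found in 1 of 6 against 22 of 32 and Arnt2 in 3 of 6 against 30 of 32. Foxj1, the regulator of motile cilia, was at 28.6, 16.2, 19.1, 12.5, 0.844 and 36.3 CPM, found in 5 of 6 against 5 of 32. It is also 1 of 8 epithelial markers, of which Cdh1 was found in 1 of 6 neurons (13.1 CPM) against 18 of 32, while Epcam, Krt5, Krt8, Krt18 and Sftpc were at 0 in every Prdm12 neuron. Foxk1 was found in 6 of 6 against 19 of 32, but its medians of 20.5 against 13.4 CPM differed by a log2 ratio of 0.38. Klf4 was at 55.96, 78.3, 17.97, 121, 24.9 and 0.0642 CPM, found in 5 of 6 against 8 of 32, while Klf5 was found in none of the 6.

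Etv1, an ETS factor, was at 24.3, 8.83, 8.27, 1.89, 33.6 and 89.1 CPM against 0.313, 234 and 1029 CPM. It was thus lower, whereas its relative Etv5 was higher. Nr3c2, the mineralocorticoid receptor, was found in 5 of 6 against 5 of 32, Maf in 6 of 6 against 15 of 32, Bach2 in 5 of 6 against 12 of 32 and Sox4 in 3 of 6 against 3 of 32. The large Zfp group had 6 of 227 members higher (2.64%) and 2 lower (0.881%).

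**Figure D3:**
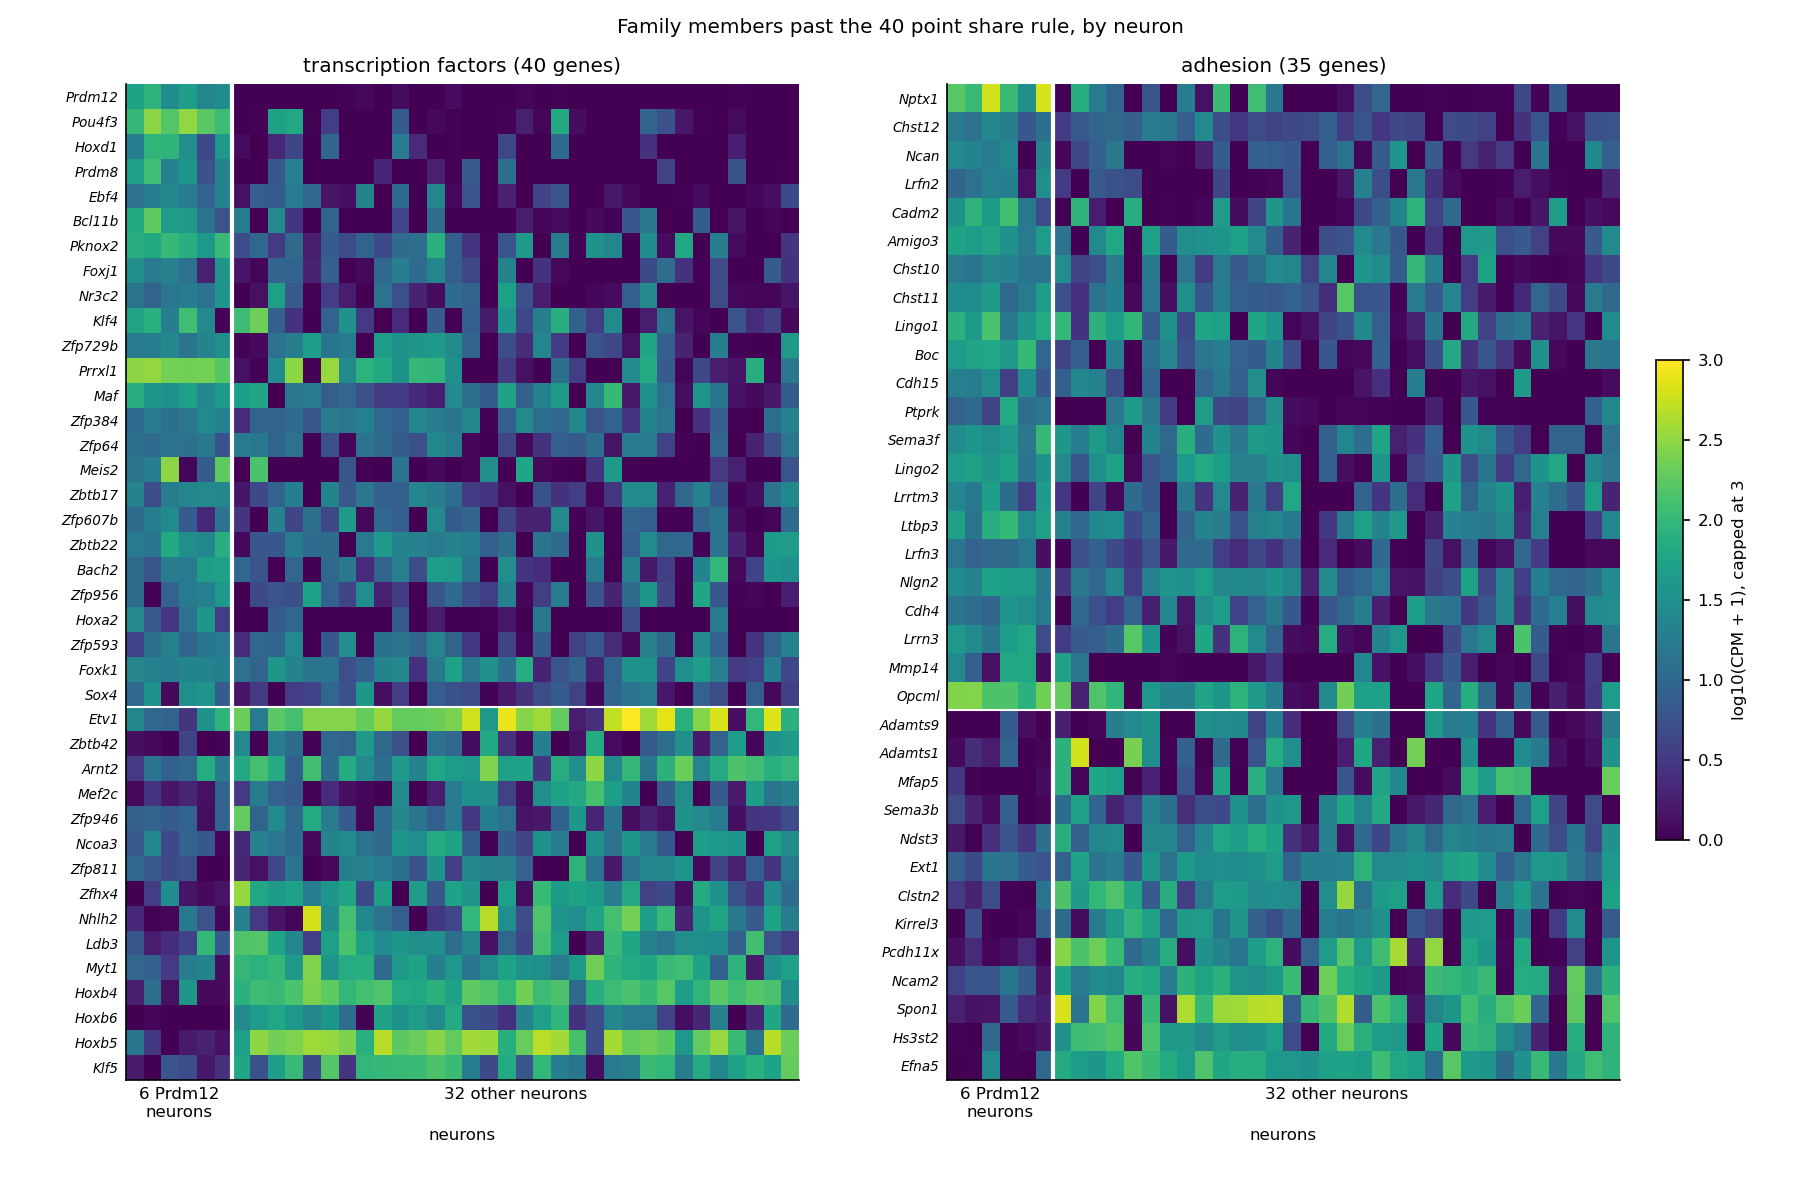
Log10(CPM + 1), capped at 3, of 40 transcription factor genes (left) and 35 adhesion and matrix genes (right) past the 40-point rule; columns are the 6 Prdm12 neurons and the 32 others, and a white line parts genes with higher (top) from lower (bottom) share. Hoxb4, Hoxb5 and Efna5 are dark in nearly all Prdm12 columns and bright in the others, while Prdm12 and Pou4f3 show the reverse.

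Synaptic adhesion organizers, proteins that align the membranes of synapses, had 9 of 60 members higher (15%) and 1 lower. Nptx1, a neuronal pentraxin that binds AMPA receptors, was at 165, 105, 628, 104, 31.4 and 659 CPM, found in 6 of 6 against 6 of 32, and AM228 and AM303 were the highest. Leucine-rich repeat genes made up most of the rest: Lrfn2 (4 of 6 against 2 of 32), Lrfn3 (3 of 6 against 2 of 32), Lrrtm3 (5 of 6 against 12 of 32), Lrrn3 (5 of 6 against 13 of 32), Lingo1 (6 of 6 against 15 of 32), Lingo2 (6 of 6 against 17 of 32) and Amigo3 (6 of 6 against 14 of 32). Nlgn2, the neuroligin of inhibitory synapses, was found in 6 of 6 against 18 of 32 at 36.1 against 15.6 CPM. Clstn2, a calsyntenin, was the member with lower share, in 1 of 6 against 22 of 32.

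Levels of the leucine-rich repeat genes were modest. Lingo1 was at 84.6, 39.9, 136, 14.8, 37.4 and 67.8 CPM and Amigo3 at 53.5, 44.7, 56.2, 32.3, 15.9 and 43.3 CPM. Both overlapped the others, whose highest values were 97.4 and 59.8 CPM.

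Among immunoglobulin superfamily adhesion molecules, 4 of 38 were higher (Cadm2, Boc, Ptprk and Opcml) and 2 were lower (Ncam2 and Kirrel3). Opcml, a GPI-anchored IgLON protein, was at 266, 279, 146, 146, 80.9 and 224 CPM against a median of 21.1 CPM. Its IgLON relative Negr1 went the other way, at 39.4, 8.55, 15.8, 65.9, 10.5 and 38.9 CPM against 41.9, 324 and 1359.7 CPM. Boc, a receptor for hedgehog ligands, was at 43.8, 54.9, 61.2, 40, 100.3 and 8.798 CPM and Cadm2 at 34.1, 88.99, 42.3, 124, 15.1 and 4.05 CPM.

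The neural cell adhesion molecules were lower together. Ncam1 was at 10.7, 19.8, 1.35, 107, 33.6 and 6.61 CPM against 5.91, 137 and 648 CPM, and passed the rule on levels but not on share. Ncam2 was at 2.95, 5.26, 4.94, 13.7, 6.75 and 0.4495 CPM against a median of 55.7 CPM. Kirrel3 was found in 0 of 6 against 17 of 32 neurons. Thy1, by contrast, was found in every neuron, at 1648 against 730.5 CPM.

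Cadherins had Cdh15 (4 of 6 against 6 of 32) and Cdh4 (5 of 6 against 13 of 32) higher among 11 compared. Pcdh11x, an X-linked protocadherin, was found in 0 of 6 against 21 of 32 neurons, and its highest value in a Prdm12 neuron was 1.31 CPM. No member of the clustered protocadherins, 7 genes, or of the integrins, 12 genes, passed the share rule in either direction, and both families are too small to set against 4.44%. Itgb1, the common integrin beta subunit, was at 255 against 175 CPM.

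Guidance genes differed in both directions by level. The ephrin Efna5 and the semaphorin Sema3b were lower in share, and Sema3f was higher, in 6 of 6 against 17 of 32. The neuropilins, receptors for class 3 semaphorins, were higher by level: Nrp1 was at 107, 59.4, 6.92, 109.8, 88.1 and 86.8 CPM and Nrp2 at 183, 433, 16.9, 368, 33.2 and 8.16 CPM, against medians of 8.93 and 14.3 CPM. Sema5a was at 745, 264, 221, 429, 225 and 497 CPM against a median of 67.5 CPM. Sema3c was lower by level, at 16.8, 116, 25.3, 31.7, 19.3 and 117 CPM against a median of 177 CPM.

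Matrix genes had 4 of 46 members lower (8.70%) and 2 higher (4.35%). Spon1, the floor-plate protein F-spondin, was at 0.832, 0.384, 0.449, 6.304, 1.501 and 0.771 CPM against 0, 111 and 664 CPM. Adamts1 and Adamts9, proteases of proteoglycans, were each found in 0 of 6 against 13 of 32. Ltbp3, which binds latent TGF-beta, was higher in share at 51.5, 13.7, 72.1, 102, 24.8 and 50.5 CPM, and Mmp14, a membrane-bound metalloproteinase, was at 25.7, 6.96, 0.359, 59.8, 61.2 and 0.257 CPM and found in 3 of 6 against 3 of 32. Mmp15, its relative, was at 107, 104, 114, 125, 28.4 and 179.6 CPM against a median of 19.5 CPM.

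Enzymes that sulfate glycans differed in both directions. The chondroitin sulfotransferases Chst11 and Chst12 and the HNK-1 sulfotransferase Chst10 were found in 5 against 9, 5 against 3 and 6 against 14 of 6 and 32 neurons. Ncan, the chondroitin sulfate proteoglycan neurocan, was found in 5 of 6 against 5 of 32. On the heparan sulfate side, Hs3st2 was found in 0 of 6 against 24 of 32 neurons at medians of 0.129 against 40.5 CPM, Ndst3 in 1 of 6 against 20 of 32 and Ext1, a heparan sulfate polymerase, in 2 of 6 against 27 of 32. Hs2st1, another heparan sulfate enzyme, was found in 6 of 6 against 29 of 32 at 48.4 against 74.8 CPM. All 4 higher members were thus chondroitin or HNK-1 genes, and all 3 lower members were heparan sulfate genes.

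Cytoskeletal genes passed the rule at shares close to those of all genes. None of 21 kinesins, 19 myosins, 12 intermediate filament genes or 9 septins did, and each of these families is too small to set against 4.44%. Of 35 tubulins and tubulin-modifying enzymes, Ttll5 (6 of 6 against 17 of 32) and Tubd1 (3 of 6 against 2 of 32) were higher (5.71%). Of 77 dynein, dynactin and ciliary genes, Dnal1 (5 of 6 against 10 of 32), Ift140 (6 of 6 against 16 of 32) and Ift172 (6 of 6 against 18 of 32) were higher (3.90%). The sign turned for Dnal1 and Ift172 at 50 CPM and for Tubd1 without the third identifier block. Tuba1a was at 10530.4 against 11914 CPM, Nefl, the light neurofilament, at 4928 against 3691 CPM, and Prph, the peripheral neuron filament peripherin, at 2053 against 2991 CPM. Klc1, a kinesin light chain, was at 2130.4 against 2018 CPM and Myo5a, a vesicle-carrying myosin, at 497 against 532 CPM.

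Of 61 microtubule-associated genes, Dpysl4, a collapsin response mediator, was higher in share (6 of 6 against 15 of 32), and Dcdc2a, the doublecortin-like kinase Dclk3 (2 of 6 against 26 of 32) and the severing enzyme Fign (1 of 6 against 19 of 32) were lower. Of 122 actin genes, Synpo (6 of 6 against 10 of 32) and Pfn1 (6 of 6 against 19 of 32) were higher, and Fhod3, Wipf3, Fscn1 and Pdlim2 were lower. Fscn1, the filopodial bundler fascin, was at 6.27, 0.164, 0.0898, 23.3, 14.4 and 0.835 CPM against 1.65, 52.8 and 124 CPM. Wipf3 was at 0, 0.1097, 9.88, 0.2802, 3.66 and 62.4 CPM and Pdlim2 at 0.3201, 0.219, 12.3, 0.07005, 0.0938 and 140.3 CPM, and both were highest in AM303.

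Lcp1, the actin bundler L-plastin, was higher by level but not in every neuron, at 128, 180.2, 1.26, 184, 134 and 0.706 CPM. AM228 and AM303 lay under 10 CPM. Of the membrane skeleton, Syne4 and Sptbn4, the beta-IV spectrin of the axon initial segment (6 of 6 against 10 of 32), were higher, and the erythroid-type spectrin Sptb was found in 0 of 6 against 15 of 32. Ank1, the ankyrin that partners Sptb, was higher by level at 338, 286, 261, 227, 152 and 229.7 CPM against 0.0484, 38.03 and 269.7 CPM.

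Exchange factors and activating proteins of the small GTPases that steer actin had 7 of 105 members higher (6.67%) and 4 lower (3.81%). Vav2, an exchange factor for Rac, was at 165, 108, 79.7, 196, 89.2 and 200.2 CPM against 0, 8.47 and 129 CPM. Dock5, another Rac exchange factor, was at 68.3, 75.1, 51.9, 109.7, 16.1 and 38.1 CPM, and Dlc1, a GTPase-activating protein, was at 127, 137, 42.05, 249, 235 and 61.3 CPM. Elmo1, the partner of Dock proteins, was lower at 8.77, 4.55, 49.1, 1.401, 1.13 and 87.98 CPM against 16.2, 115 and 229 CPM, with AM228 and AM303 above 10 CPM. Stard13 and Dock10 were found in none of the 6 neurons.

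Core energy metabolism gave few genes past the rule. Of 83 nuclear genes of oxidative phosphorylation, Ndufaf6, an assembly factor of complex I, alone passed the rule (6 of 6 against 18 of 32). None of 11 genes of the mitochondrial genome did, too few to set against 4.44%. A gene found in nearly every neuron of both classes cannot pass the share rule, however its level differs. By level, no gene of either family passed the 4-fold rule. The glycolytic enzyme Aldoa was at 3219.7 against 2535 CPM, the ATP synthase subunit Atp5g3 at 1619 against 1893 CPM, Mdh1 at 1541 against 1821 CPM and mt-Cytb at 4656 against 3858 CPM. Mitochondrial genes took 1.12 to 3.35% of counts in Prdm12 neurons and 0.0829 to 5.59% in the others. Pfkfb4, which sets the level of a glycolytic activator, and Me2, mitochondrial malic enzyme, were found in 6 against 18 and 6 against 19 of 6 and 32 neurons, with small ratios of medians (log2 0.48 and 0.77).

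Lipid enzymes were close to the background, with 6 of 118 higher (5.08%) and 2 lower (1.69%). The higher ones were Pla2g7, Dagla, Smpd3, Dgat2, Plppr2 and Pla2g6. Dagla, which makes the endocannabinoid 2-arachidonoylglycerol, was at 30.1, 32.1, 14.8, 20.9, 9.098 and 31.1 CPM, found in 5 of 6 against 4 of 32. Smpd3, neutral sphingomyelinase, was at 36.6, 32.6, 31.6, 55.97, 5.91 and 26.5 CPM, found in 5 of 6 against 4 of 32. Lower were the glycan-building enzymes St3gal4 (0 of 6 against 21 of 32) and B4galnt4 (0 of 6 against 14 of 32).

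Nucleotide and amino acid enzymes gave single genes. Ak5, a brain adenylate kinase, was at 29.96, 72.5, 28.3, 47.1, 53.1 and 1.61 CPM, and Abat, which degrades GABA, at 33.1, 59.7, 6.65, 28.6, 23.1 and 20.7 CPM. Nt5e, the ecto-nucleotidase that makes adenosine outside the cell, was found in 0 of 6 against 16 of 32 neurons, with no Prdm12 neuron above 0.3201 CPM. Ass1, of arginine synthesis, was found in 1 of 6 against 19 of 32.

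Solute carriers had 9 of 161 members higher (5.59%) and 3 lower (1.86%). Higher in share were Slc25a29 (5 of 6 against 7 of 32), Slc29a2 (5 of 6 against 11 of 32), Slc30a4 (5 of 6 against 12 of 32), Slc6a17 (6 of 6 against 17 of 32), Slc19a1 (6 of 6 against 18 of 32), Slc37a4 (6 of 6 against 18 of 32), Slc7a4 (6 of 6 against 18 of 32), Slc38a7 (5 of 6 against 13 of 32) and Slc6a8 (6 of 6 against 19 of 32). Lower were Slc7a8, an amino acid exchanger (0 of 6 against 22 of 32), Slc6a19 (1 of 6 against 21 of 32) and Slc5a7, the choline transporter (0 of 6 against 13 of 32). The creatine transporter Slc6a8 had medians of 12.3 against 12.4 CPM, so its higher share was a matter of values close to 10 CPM.

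Receptors of the neurotrophins were read next. Ntrk2 was lower in all 6 neurons, and Ntrk3, the receptor for neurotrophin 3, was at 91.2, 54.8, 1322, 0.07005, 17.2 and 662 CPM. Ngfr, the p75 receptor shared by all neurotrophins, was at 975, 935, 398, 812, 274 and 371 CPM against 0.198, 124 and 961 CPM. AM228 and AM303 were the neurons in which Ntrk3 was highest.

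Gfra2, the co-receptor for neurturin, was found in 0 of 6 against 24 of 32 neurons, with a highest Prdm12 value of 3.15 CPM. Fgfr1, a fibroblast growth factor receptor, was at 144, 124, 449, 148, 48.4 and 425 CPM against a median of 14.6 CPM. Kit, the stem cell factor receptor, was at 177, 268, 0, 208, 46.9 and 0 CPM, and Kitl, its ligand, at 161, 81.97, 171, 33.4, 8.91 and 115 CPM. Kit was listed at 0 in AM228 and AM303, whereas Kitl was present there. Hgf, hepatocyte growth factor, was found in 4 of 6 against 6 of 32, and Fgf11 in 0 of 6 against 18 of 32.

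Ras and MAP kinase genes had 10 of 98 members higher (10.2%) and 1 lower (1.02%). Rasd1 (6 of 6 against 4 of 32), Rasgrf2, Spry2 (6 of 6 against 10 of 32), Spry4 (5 of 6 against 5 of 32), Diras2 (4 of 6 against 5 of 32) and Rasl10b (4 of 6 against 5 of 32) were among the higher ones. Sprouty genes encode feedback inhibitors of receptor signalling, and their medians were low, 16.5 against 3.900 CPM for Spry2 and 15.5 against 1.22 CPM for Spry4. Rasgrp1 was the lower member, so the 2 calcium- and lipid-activated exchange factors, Rasgrf2 and Rasgrp1, differed in opposite directions. Dusp26, a dual-specificity phosphatase, was lower by level at 14.1, 50.9, 21.7, 113, 231 and 31.3 CPM against 65.6, 276 and 983 CPM.

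Second-messenger enzymes also differed in both directions. Pde3b (6 of 6 against 9 of 32), Pde1c (5 of 6 against 6 of 32), Adcy7 (5 of 6 against 4 of 32) and Adcy1 (5 of 6 against 8 of 32) were higher, and Pde8a (1 of 6 against 22 of 32) and Akap7 (3 of 6 against 29 of 32) were lower. Pde8b, of the same subfamily as Pde8a, was higher by level at 81.4, 79.1, 0.629, 97.3, 90.2 and 27.6 CPM against a median of 12.1 CPM. Adcy1, the calmodulin-activated cyclase, was at 32.9, 35.7, 60.1, 56.3, 47.6 and 7.39 CPM, low only in AM303.

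The phospholipases Plce1 (1 of 6 against 23 of 32) and Plch1 (1 of 6 against 23 of 32) were lower, and Plcg1 (6 of 6 against 15 of 32) was higher. Camk4 was lower in share, in 3 of 6 against 31 of 32, while Camk1g was higher, in 5 of 6 against 3 of 32. Rgs17, which shortens G protein signals, was at 46.2, 130.2, 41.96, 44.9, 42.1 and 51.6 CPM against 39.9, 470.1 and 1134 CPM. It was thus low in all 6 neurons but above 10 CPM, so it differed by level and not by share.

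Synaptotagmins had 4 of 18 members higher (22.2%) and 1 lower. Sytl3 was at 92.2, 65.6, 36.4, 48.4, 72.5 and 25.9 CPM and Rph3a, the Rab3 effector rabphilin, at 144, 40.7, 266, 179, 67.2 and 148 CPM, against medians of 0 and 5.48 CPM. Syt3 was found in 4 of 6 against 8 of 32. Syt17 was found in 0 of 6 against 23 of 32, with no Prdm12 neuron above 0.188 CPM. Syt2 and Syt7 were higher by level, at 91.4 against 14.5 CPM and 127 against 23.1 CPM, and Syt11 was found in every neuron at 2372 against 1259 CPM.

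Vesicle glycoproteins of the Sv2 family differed in opposite directions. Sv2b was at 401, 177, 260.1, 338, 50.9 and 159 CPM, while Sv2a, found in 3 of 6 against 31 of 32 neurons, was at 7.17, 42.4, 0, 79.2, 54.1 and 0.128 CPM. Cplx2, a complexin that clamps fusion, was at 149, 175, 367, 55.3, 19.8 and 167 CPM against a median of 12.03 CPM. The fusion protein Snap25 was found in every neuron at 1806 against 2179.9 CPM. Rab3c, a vesicle Rab, was at 338, 739, 26.2, 1058, 675 and 52.5 CPM against a median of 80.9 CPM, with AM228 and AM303 low.

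Voltage-gated and inward rectifier potassium channel genes had 9 of 44 members higher (20.5%) and 2 lower (4.55%). Kcnh1 was at 31.9, 17.7, 19.3, 43.9, 51.1 and 89.97 CPM, Kcns3, a silent modulatory subunit, at 223, 89.97, 417, 126, 71.7 and 314 CPM, and Kcnd3, an A-type channel, at 221, 195, 113, 139.8, 39.1 and 90.7 CPM. Kcnd1, of the same A-type family, was found in 6 of 6 against 31 of 32 and was higher by level at 882, 713, 1763, 800.4, 321 and 2445 CPM against 2.42, 189.6 and 703 CPM. Its partners Kcnip1 (5 of 6 against 1 of 32) and Kcnip3 (179.9 against 18.1 CPM) were higher too. These 4 genes of the A-type current and its KChIP partners were higher, by share or by level, but they do not cover the whole channel complex. Dpp10, which encodes another accessory subunit of such channels, went the other way, with a share at least 40 points lower.

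On the lower side were Kcnmb2 (0 of 6 against 18 of 32), an accessory subunit of the calcium-activated BK channel, and Kcnq3, an M-current subunit, at 32.3, 8.83, 92.9, 1.33, 0.375 and 91.2 CPM. Kcnab1 was lower by level at 115, 285, 0.629, 48.6, 75.97 and 1.03 CPM against 23.99, 391 and 793 CPM. AM228 and AM303 lay under 10 CPM for Kcnab1 and were, with AM011, the neurons in which Kcnq3 was found. Among transmitter-gated channels, the GABA-A subunits Gabrb1 (0 of 6 against 14 of 32) and Gabrg1 (0 of 6 against 16 of 32) were lower, Gabra2 (6 of 6 against 19 of 32) was higher, and the AMPA subunit Gria3 was found in 2 of 6 against 26 of 32.

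Genes of protein synthesis and folding seldom passed the rule. None of 75 chaperone genes passed the rule, but a gene found in nearly every neuron of both classes cannot pass it by share. By level, no chaperone or ribosomal protein gene passed the 4-fold rule. Of 71 ribosomal protein genes, Rpl5 (0 of 6 against 17 of 32) and Rps27a (0 of 6 against 14 of 32) were lower, but both lay around 10 CPM in either class, with medians of 6.499 against 11.2 CPM and 7.24 against 9.67 CPM, and Rps3 was at 619 against 618 CPM. Non-coding genes and pseudogenes had 22 of 645 members higher (3.41%) and 12 lower (1.86%).

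Some genes past the rule lay side by side. Among 10133 adjacent pairs of coding genes compared, 26 pairs had both members higher, which took in 46 of 458 higher coding genes, and 12 pairs had both lower, 21 of 206 genes. With 4.51% of all coding genes higher and 2.03% lower, some such pairs arise without any link, and the numbers were not compared with chance. Higher pairs included Syt6 and Olfml3, parted by 76653 bases, Dpysl4 and Stk32c, parted by 934 bases, Kcnd3, Ddx20 and Inka2 in a row on chromosome 3, and Pde3b, Calca and Calcb in a row on chromosome 7. Lower pairs included the Hoxb genes, Kirrel3 and St3gal4, parted by 9860 bases, Pxmp2 and P2rx2, and Tceal5, Bex1, Tceal9 and Bex3 on the X chromosome. By chromosome, the share of higher genes was 3.56 to 5.68% on the autosomes and 2.19% on the X chromosome. The share of lower genes was 0.727 to 3.94% on the autosomes, with chromosome 3 at the top, and 3.84% on the X chromosome.

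The 6 Prdm12 neurons were not uniform. The SD of log2(CPM + 10) over the 6 had a median of 0.52 over all genes, against 0.82 over the 32 others, and it passed 2 for 42 genes (0.389%). Calca had the largest SD, and Tac1 was at 1.47, 172, 1.98, 189, 7059 and 4.11 CPM, so that AM296 carried a level far above the rest. Cartpt, another neuropeptide gene, was at 21.8, 4.93, 0.1797, 2016, 1553 and 0 CPM, high in AM237 and AM296.

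AM228 and AM303 shared values that set them off. Pcp4, a calmodulin-binding peptide, was at 102, 33.2, 1542, 2.45, 0.563 and 1463 CPM. S100a16 was at 120.5, 1.04, 1075, 16.2, 33.2 and 913 CPM, and Ppm1j, a protein phosphatase, at 4.87, 38.6, 503, 0, 0.188 and 446 CPM. Gm765 was at 47.8, 6.52, 1007, 0.4203, 0.281 and 927 CPM. For these genes, as for Ntrk3, AM228 and AM303 were the highest of the 6 by several fold.

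The reverse was seen for Cyp1b1, a cytochrome P450, at 900.1, 229, 0.449, 266, 585 and 1.73 CPM, for Prokr2, a prokineticin receptor, at 268, 241, 0, 76.2, 110.5 and 0 CPM, and for S1pr3, a sphingosine-1-phosphate receptor, at 409, 498, 45.1, 524, 168 and 3.53 CPM. Htr3a, the serotonin-gated channel, was at 95.7, 369, 5.93, 1119, 140.1 and 0.385 CPM. Adcyap1, the PACAP precursor, was at 4.99, 320.0, 0.0898, 203, 325 and 0.514 CPM, high in AM013, AM237 and AM296. With Calca and Kit, these genes were low or absent in AM228 and AM303, which are described neuron by neuron and were not averaged as a group.

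Some of the variable genes are markers of glia. Apoe was at 18.8, 293, 2.87, 1391, 1232 and 2.06 CPM and Fabp7 at 8.58, 107, 1.53, 453, 509 and 5.78 CPM, both highest in AM237 and AM296. These neurons had the highest satellite glia sums, 2633 and 2554 CPM, but the sums include Apoe and Fabp7 and are not separate from them. They also had the highest Cartpt. The part of glial RNA in their values was not tested. Hspa1b, a heat shock gene, was at 24.9, 14.1, 121, 1115, 675 and 184 CPM, also highest in AM237 and AM296.

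**Figure D4:**
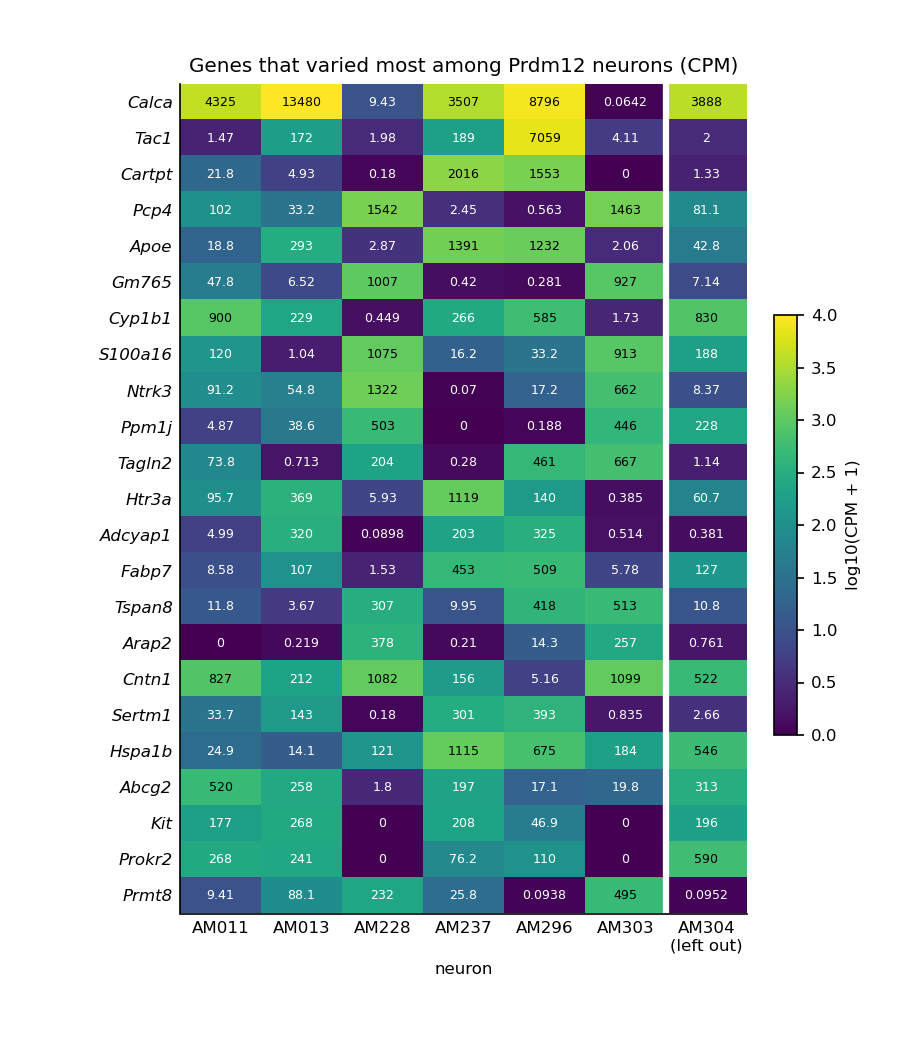
CPM of 23 of the 24 genes with the largest SD among the 6 Prdm12 neurons, one column per neuron, with AM304 at the right as a neuron left out of the comparison; colour is log10(CPM + 1) and the number in each cell is the CPM. AM228 and AM303 share high Pcp4, Gm765, S100a16 and Ntrk3 and low Calca, Kit and Prokr2.

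Whole profiles were compared as well. Over the 10805 genes, Pearson's r of log2(CPM + 10) was highest for AM011 and AM013 (0.920), then for AM011 and AM237 (0.901), and was 0.877 for AM228 and AM303. AM296 and AM303 were the least alike (0.777). The median r was 0.838 over 15 pairs within the class (0.777 to 0.920), 0.761 over 192 pairs of a Prdm12 and another neuron (0.599 to 0.872), and 0.733 over 496 pairs of other neurons (0.565 to 0.915). The ranges overlapped. For each of the 6 the closest of the 37 neurons was another Prdm12 neuron, but only 2 to 4 of the 5 in the class were closer than every neuron outside it. These correlations run across genes, which are not independent replicates, and the neurons share the genes that chose the comparison.

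AM304, the Prdm12 neuron left out for its gene number, gave values that the comparison had not used. It had 10 CPM or more for 42.3% of the 10805 genes, for 34.2% of the 480 genes with higher share (164 genes) and for 11% of the 218 with lower share (24 genes). The 7 other left-out neurons with 4000 to 5000 genes had 10 CPM for 36.1 to 43.7% of all genes, 10 to 16.3% of the higher genes and 27.5 to 38.99% of the lower genes. AM304 therefore lay above all 7 for the higher genes and below all 7 for the lower genes, at a like number of genes detected.

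Of the 14 fully separated genes, 11, Prdm12 itself among them, exceeded every one of the 32 other neurons in AM304, against 0 to 2 in the 7 left-out neurons. The left-out neuron with 2 was AM072, whose Prdm12, at 3.41 CPM, also lay above all 32 others. AM304 had 241 CPM of Trappc3l, 124 of Asic3, 380.1 of Pou4f3, 344 of Camk2g and 147 of Etv5. It had 3888 CPM of Calca, 81.1 of Pcp4 and 8.37 of Ntrk3. In these 3 genes it resembled AM011 more than AM228 or AM303. Ppm1j, another gene high in AM228 and AM303, went the other way. It was at 228 CPM in AM304, against 4.87, 503 and 446 CPM in AM011, AM228 and AM303. These values of AM304 were looked up after seeing the data.

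The numbers in the neurons' names fall into 3 blocks, which the labels do not call batches. Prdm12 neurons fell in the first block (AM011 and AM013, with 9 other kept neurons) and the third (4 neurons, with 19 others), and none of the 4 kept neurons of the second block was one. Of the 480 genes with higher share, 289 passed 40 points within the first block, 404 within the third and 221 (46.04%) in both. Of the 218 with lower share, 175, 143 and 102 (46.8%) did. The direction was the same in both blocks for 465 and 213 genes, and it was opposite in the first block for 10 and 4 genes. The genes were picked on the neurons of these same blocks pooled. Agreement in direction was therefore largely built in, and the split is no separate check. Nptx1 was found in 2 of 2 against 3 of 9 neurons of the first block and 4 of 4 against 0 of 19 of the third, and Pknox2 in 2 of 2 against 0 of 9 and then 4 of 4 against 7 of 19.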

How the data were processed

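Single mouse neurons were collected after retrograde tracing, their RNA was amplified, and reads of 76 bases were sequenced on a NextSeq instrument, per the labels. The authors deposited 1 table of raw counts of reads per gene for 84 neurons, counted with featureCounts per the submitters' processing notes. Not given in the sources used here are its version and strand setting, the aligner, and the build and annotation of the genome. No molecular identifiers are mentioned, so intervals cover counting error only. Of 50686 gene identifiers 50462 matched GENCODE M21 (GRCm38), and the rest held at most 0.155% of a kept neuron's counts.

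Counts were divided by the neuron's total and scaled to 1000000 counts (CPM). Kept neurons had at least 5000000 counts and 5000 genes at 10 CPM or more, and compared genes reached 10 CPM in at least 5 of them. Shares have exact Clopper-Pearson 95% intervals. Ratios are of medians after adding 10 CPM. The size rules were 40 percentage points and 4-fold. No pair of kept neurons had identical counts. With no animal named, neurons are not replicates and no p-value was computed. Doublets were not searched for, since each neuron was collected individually.

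Genes were named by a rule: the 15 coding genes with the largest share difference and the 10 with the largest ratio in each direction, up to 4 members of each family past 40 points with the family's highest expressed member, markers, the 10 coding genes that varied most among the Prdm12 neurons, and genes without overlap. Further members past a rule, and variable genes beyond the 10, were picked after their values were seen. The members and lists were chosen with earlier results of these data known. Many named genes overlap another annotated gene along part of their length, and counts of overlapping genes are uncertain without a stated strand setting. A few items are not reported here. Calculations ran in Python 3.11.15 (scipy 1.17.1, pandas 2.3.3, numpy 2.4.6, matplotlib 3.10.9) and R 4.3.3 with edgeR 4.0.16, the latter for TMM factors. The scripts were tested on simulated data. Alternatives covered the threshold, the filters on neurons and genes, depth, scaling, pseudocount, size rules, identifier blocks and single neurons.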

Additional observations from a re-analysis of the deposited data

Results flagged for a closer look

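For 58 quantities the highest or lowest of the 6 Prdm12 neurons was set against the other 5, and 6 stood apart by Dixon's criterion. Its chance rate of about 1 in 20 holds for normally distributed values that were not selected. Named genes were chosen by their values and some lie near 0, so 6 of 58 cannot be set against that rate. AM296 stood apart for D430019H16Rik, at 203 CPM, and for Tmem159, at 5.44 CPM. AM011 did so for Hoxb5, at 13.6 CPM, AM013 for Phox2a, at 0.0548 CPM, and AM237 for Pygo1, at 9.39 CPM, and for Syt6, at 140 CPM. In each of these the single neuron lay above the rest. For Tmem159, Pygo1 and Phox2a all 6 neurons were under 10 CPM.

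Prdm12 was also read in neurons that the gene minimum left out of the comparison. AM304 had 57.8 CPM, AM086 9.13 CPM, AM072 3.41 CPM and AM076 2.40 CPM, all above the highest kept neuron outside the class, at 0.259 CPM. AM086, AM072 and AM076 had 3793, 4092 and 3286 genes at 10 CPM or more.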

How the results depend on the processing

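The main counts were 480 genes higher and 218 lower by share, 105 and 71 by level, and 14 and 2 without overlap. At 50 CPM 314 genes were higher by share, of which 52 were among the 480, and 57 of the 218 lower genes were called. At 5 CPM 227 and 127 of the 480 and 218 were called, and at 1 count 58 and 23. With no gene minimum the 6 counts were 2119, 58, 442, 40, 7 and 0, while the median log2 ratio of all genes moved to 0.60 and the median share difference to 22.6 points. A minimum of 6000 genes gave 366 higher and 292 lower by share, and 4 lower genes without overlap. Others with 0 Prdm12 counts gave 6 lower genes without overlap. Against the 10 others with as many genes as Prdm12 neurons, 427 genes were higher and 370 lower by share, and 41 and 24 had no overlap. Of the 480 and 218 genes, 308 and 172 were called there too. Prdm12 at 30 CPM or more, 3 neurons, gave 908 higher and 360 lower by share, and 45 higher and 11 lower without overlap. Genes in at least 10 neurons gave 8 higher without overlap. A pseudocount of 1 gave 466 and 237 by level, 50 points 224 and 116 by share, and 8-fold 27 and 23 by level. With AM304 added, an alternative chosen after seeing the data, 302 genes were higher by share, of which 272 were among the 480.

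Leaving out 1 block or 1 neuron gave 459 to 602 genes higher and 185 to 744 lower by share, 87 to 122 and 58 to 86 by level, and 14 to 147 and 2 to 118 without overlap. Without the third block 744, 147 and 118 were reached, with 2 against 13 neurons. The 260 named share differences were read under up to 23 alternatives each. Moves were set against the distance from the middle to the end of the exact interval of the Prdm12 share. By this measure 5631 values moved by less, 320 moved by more and 29, 1 each for 29 genes, turned, with the cause not tested. With 32 others, 1 other neuron is worth 3.13 points, the size of many of the turned values below. Of the 260, 82 moved by less than that distance under every alternative. At 5 CPM Gm18284 was at 21.9 points. At 50 CPM Stk32c, Spry2, Rab36, Zfp729b, Dnal1, Gstm4 and Ift172 were at -3.13 points, Chst10, Psmd9, Pfkfb4 and Foxk1 at -6.25 and Me2 at -9.38. At 1 count Fign, Ncoa3, Klhl5 and Pcdh11x were at 9.38 points, Mef2c at 12.5, Dclk3, Spon1 and Rasgrp1 at 6.25, and Gm8155, Nhlh2, Ldb3, Tmem233, Stom and Fhod3 at 3.13. With 1 block left out Tubd1 ran from -7.69 to 66.3 and Dubr from -86.96 to 7.69, the turn coming without the third block. For 75 median ratios 1494 values moved by less than the spread and 81 by more, none turning, and 14 of the 75 stayed within it throughout. With 6 neurons, a share of 0 allows up to 50% by the rule of 3 counts, and the counts above cannot separate animals from neurons. No paired analysis was possible because the labels give no replicate numbers and no test between the classes was run.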

Other observations

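Several genes near the largest differences have partners of the same family that differ the other way. Etv5 was higher and Etv1 lower, Sv2b higher and Sv2a lower, Pde8b higher and Pde8a lower, Opcml higher and Negr1 lower, and Klf4 higher and Klf5 lower. These pairs were picked after their values were seen, and how often such pairs occur over all families was not counted.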
